A study of Mus musculus with 4 samples.

Results

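Among CD4 T cells sorted from mouse lung, a small set of cells with a naive-type profile carried transcripts of Sox4, a transcription factor gene of the Sox family. These Sox4-positive cells numbered 824 of 14217 kept cells, 286 of 7135 from tumor-bearing lung and 538 of 7082 from normal lung. They were chosen by their transcript counts. Each had at least 1 unique molecular identifier (UMI, a count of 1 distinct transcript molecule) of Sox4, no UMI of the regulatory T cell gene Foxp3, and no UMI of 5 genes of activated or effector T cells, Ccl5, Nkg7, Cxcr6, Pdcd1 and Tnfrsf9. The reference cells met the same conditions in the same library, but had no Sox4 UMI and at least 1 UMI of the lymph node homing receptor gene Ccr7. Of the reference cells, 4207 were from tumor-bearing and 5448 from normal lung. Sox4, Ccr7, Foxp3 and the 5 genes were therefore set by the selection, and no difference in them between the classes is a finding. Because Sox4 was the criterion, every contrast of the classes below is a description, with no test.

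The mice were C57BL/6. The tumor group received TC1 cells, a tumor line made from lung epithelial cells of this strain, through the tail vein, and its lungs were taken 3 weeks later. The normal group was age-matched mice without tumor cells. The labels state neither the ages nor how many mice were pooled. Each tissue gave 1 gene expression library, built from the 5′ ends of transcripts in droplets, and 1 T cell receptor library from the same droplets, so no difference between tissues has a replicate check, and tissue and library cannot be told apart. The kept cells held 31921001 UMIs in the tumor and 28084248 in the normal library, with medians of 4173 and 3906 per cell, and the Sox4-positive cells held 1252831 and 2194090 of them. Of the barcodes, 86 occurred in both libraries, and 4 of these belonged to a Sox4-positive cell in either.

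T cells complete their development in the thymus and leave it as recent thymic emigrants, which are naive in phenotype but not yet fully mature. Over the following weeks they adjust their surface molecules and their responsiveness, a step called post-thymic maturation. Sox4 is known for its expression in thymocytes and other progenitors, and Itm2a, a membrane protein gene switched on during positive selection in the thymus, is often used beside it to mark recent emigrants. Each T cell carries a receptor made by joining V, D and J gene segments, and the joined stretch, the third complementarity-determining region (CDR3), works as a tag of descent: cells with identical alpha and beta CDR3 sequences are read as members of 1 clone.

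Shared receptors were rare among the Sox4-positive cells. In the tumor library, 0 of 225 with paired alpha and beta chains shared both with another kept cell of the library, where 3 counts would be 1.33%. In the normal library, 4 of 443 did (0.903%, 95% interval 0.247 to 2.30), and each of the 4 shared its receptor with exactly 1 reference cell. The CDR3 sequences of these 4 pairs are shown because they are the only paired receptors that link a Sox4-positive cell to another kept cell. They were read 5′ to 3′ from the deposited receptor tables, and capitals mark the part between the first 3 and the last 3 codons, where the segments were joined.
Clone 1, alpha, TRAV5-1 with TRAJ6: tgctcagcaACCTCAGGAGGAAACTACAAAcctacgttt
Clone 1, beta, TRBV13-3 with TRBJ2-1: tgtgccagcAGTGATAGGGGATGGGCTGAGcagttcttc
Clone 2, first alpha, TRAV6-6 with TRAJ32: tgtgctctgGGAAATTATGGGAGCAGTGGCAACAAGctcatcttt
Clone 2, second alpha, TRAV7-4 with TRAJ23: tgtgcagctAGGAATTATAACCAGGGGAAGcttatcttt
Clone 2, beta, TRBV10 with TRBJ1-3: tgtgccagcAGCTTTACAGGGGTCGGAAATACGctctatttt
Clone 3, alpha, TRAV13N-1 with TRAJ15: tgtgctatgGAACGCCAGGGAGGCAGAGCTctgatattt
Clone 3, beta, TRBV1 with TRBJ2-4: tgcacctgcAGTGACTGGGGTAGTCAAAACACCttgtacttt
Clone 4, alpha, TRAV6-5 with TRAJ31: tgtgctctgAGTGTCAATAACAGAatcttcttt
Clone 4, beta, TRBV1 with TRBJ2-5: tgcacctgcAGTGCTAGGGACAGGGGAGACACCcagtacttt

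Clones 3 and 4 use the same V beta segment, TRBV1, but differ in the J segment and in the joined part. In clone 2, both productive alpha chains are shared as well as the beta chain. All 4 pairs lay below the library's median depth. The Sox4-positive cell and its partner held 1482 and 2121 UMIs in clone 1, 1462 and 2528 in clone 2, 2275 and 1062 in clone 3, and 2734 and 2285 in clone 4. The 103 Sox4-positive or reference cells of the normal library that shared a receptor held 1062 to 6116 UMIs with a median of 1909, against 4002 for the 4537 with a receptor of their own. In the tumor library the medians were 4627 for the 3 such cells and 4175 for the others. The part that depth plays in shared receptors was not tested. Leaving these cells out reversed none of the 94 values recomputed and moved no count among them by over 1.5 times.

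Reference cells from tumor-bearing lung shared receptors in 3 of 3428 cases (0.0875%, 0.0181 to 0.256), and those from normal lung in 99 of 4197 (2.36%, 1.92 to 2.86). Cells outside both classes, which include the Foxp3-positive and effector cells, shared them in 18.1% (16.4 to 19.8) of 2052 tumor cells and 12.9% (10.7 to 15.4) of 820 normal cells. The Sox4-positive cells thus stood with the reference cells, far below the remaining cells, in both tissues. The beta CDR3 alone was shared by 4 of 255 (1.57%, 0.429 to 3.97) and 16 of 500 (3.20%, 1.84 to 5.14) Sox4-positive cells, beside 0.961% and 5.80% of reference cells. Intervals for shares are Clopper-Pearson intervals at 95%, and all intervals given here cover counting error only: they treat UMIs of 1 cell, and cells of 1 library, as independent.

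Sox4 (ENSMUSG00000076431, chromosome 13, 28948919 to 28953699, GRCm38.p6) was seen at low counts. A single Sox4 UMI placed 239 of 286 cells in the tumor set and 424 of 538 in the normal set, 2 UMIs were found in 34 and 77 cells, and 3 or more in 13 and 37 cells, up to 7 and 5. Most members thus lie just inside the threshold, and a cell that expresses Sox4 weakly can fall into the reference. The Sox4-positive cells were close to the reference in depth. Their median was 4036.5 UMIs in the tumor library, against 4155 in the reference, and 3879 against 3927.5 in the normal library. Of 903 kept cells with a Sox4 UMI, a UMI of the 5 genes kept out 31 tumor and 20 normal cells, of which 20 and 11 had just 1 such UMI, and a Foxp3 UMI kept out 12 and 16.

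Sox4-positive cells made up a smaller part of the tumor library than of the normal one. They were 4.01% (3.57 to 4.49) of kept tumor cells and 7.60% (6.99 to 8.24) of kept normal cells. Relative to Sox4-positive and reference cells together, which takes out the larger share of other cells in the tumor library, they were 6.37% (5.67 to 7.12) and 8.99% (8.27 to 9.74). When every cell was thinned to 2417 UMIs, leaving out 393 and 708 shallower cells, these 4 shares became 2.70%, 5.44%, 4.51% and 6.59%. The tumor share stayed below the normal share on both denominators. With 1 library per tissue there is no test of this difference.

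A Sox4 UMI was more frequent in the naive gate than in other Foxp3-negative cells. In cells with no Foxp3, none of the 5 genes and a Ccr7 UMI, 5.80% (5.13 to 6.53) of 4466 tumor cells and 8.67% (7.97 to 9.41) of 5965 normal cells had a Sox4 UMI, at summed levels of 17.2 and 28.8 CPM (counts scaled to a total of 1000000 UMIs of the class). Foxp3-negative cells with a UMI of any of the 5 genes had Sox4 in 3.92% (2.68 to 5.52) of 790 tumor and 4.03% (2.48 to 6.16) of 496 normal cells, at 12.4 and 11.2 CPM. The normal interval lay below that of the naive gate, and the tumor intervals overlapped. Cells with UMIs of both Ccl5 and Nkg7, a chemokine and a granule protein gene of effector cells, serve as the background from free RNA. Of these, 0 of 101 tumor cells, where 3 counts would be 2.97% and the interval ends at 3.59%, and 1 of 181 normal cells (0.552%, 0.0140 to 3.04) had a Sox4 UMI, although their medians of 5243 and 4072 UMIs were above those of the naive gate, 4149.5 and 3925. With all UMIs, the interval of the naive gate lay above that of these cells in both libraries. In thinned cells this held in the normal library, at 6.16% (5.52 to 6.84) against 0 of 151 (0 to 2.41). The thinned tumor intervals overlapped, at 3.89% (3.31 to 4.54) against 0 of 76 (0 to 4.74).

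**Figure D1:**
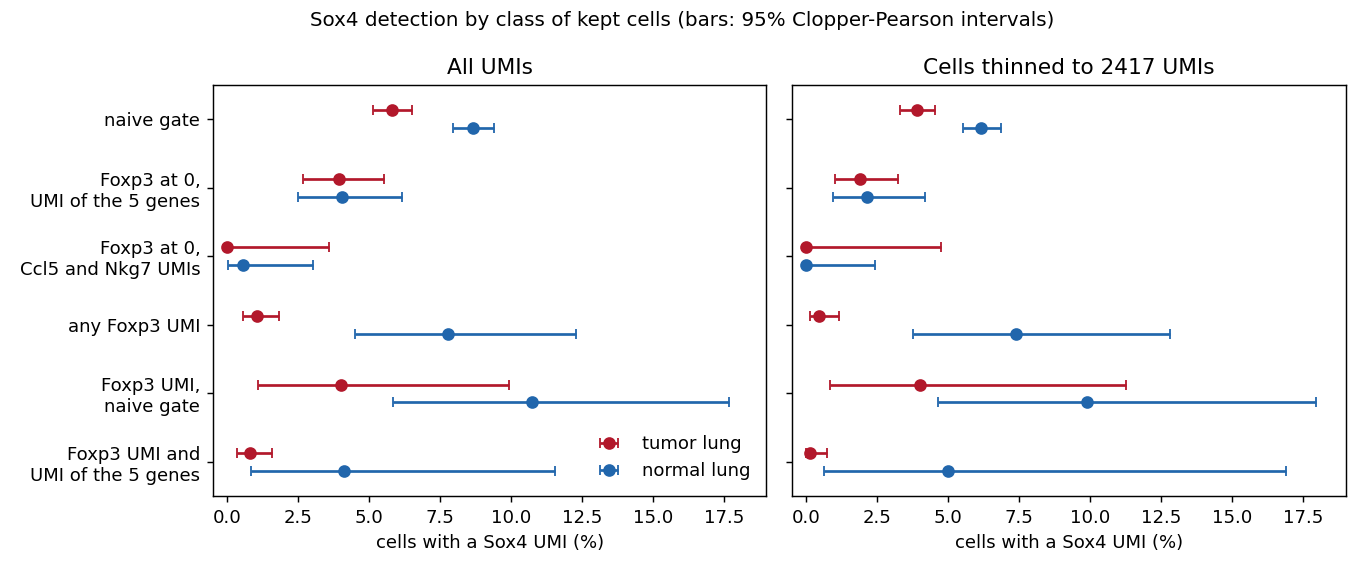
Share of cells with a Sox4 UMI (x axis, percent) in classes of kept cells (y axis), with all UMIs on the left and after thinning on the right; points are libraries and bars 95% intervals. In the naive gate the normal library (8.67%) lies above the tumor library (5.80%), and cells with Ccl5 and Nkg7 UMIs lie at or near 0.

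The naming of these cells as recent thymic emigrant-like rested on Sox4, Itm2a, Igfbp4 and Tsc22d1, and the data bear this out only in part. Itm2a (chromosome X, 107397195 to 107403360) was clearly higher. It stood at 346 CPM in Sox4-positive tumor cells against 216 in the tumor reference, a ratio of 1.61 (1.45 to 1.78). In normal lung it stood at 385 against 208 CPM, a ratio of 1.85 (1.72 to 1.99). At least 1 Itm2a UMI was found in 61.5% (55.6 to 67.2) of Sox4-positive tumor cells and 46.0% (44.5 to 47.5) of the reference, and in 63.0% (58.8 to 67.1) and 42.1% (40.8 to 43.4) in the normal library. After thinning the shares were 50.5% against 33.6% and 53.3% against 32.4%. The gap was thus as wide in cells of equal depth.

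Igfbp4 and Tsc22d1 did not follow in both tissues. Igfbp4 (chromosome 11, 99040005 to 99052655), which encodes an insulin-like growth factor binding protein found in naive T cells, was at 1411 CPM in Sox4-positive and 1475 in reference tumor cells, a ratio of 0.96 (0.91 to 1.00). In normal lung it was at 1283 and 1083 CPM, a ratio of 1.18 (1.14 to 1.23). Tsc22d1 (chromosome 14, 76414961 to 76507765), a leucine zipper gene induced by TGF-beta, had 23 UMIs in Sox4-positive tumor cells and a ratio of 0.93 (0.58 to 1.42), and 111 UMIs in the normal ones with a ratio of 1.28 (1.04 to 1.56). Of the 3 markers that the selection did not use, a cell held UMIs of 2 in 47.9% (42.0 to 53.9) of Sox4-positive and 40.3% (38.9 to 41.8) of reference tumor cells, and in 45.2% (40.9 to 49.5) and 34.0% (32.8 to 35.3) of normal ones. Since a single marker besides Sox4 was higher in both libraries, the cells are called Sox4-positive here.

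They had the profile of CD4 T cells. Cd3e, a subunit of the receptor complex, was found in 283 of 286 and 524 of 538 cells, Cd4 in 147 and 315, and Cd8a in none. Defining genes of other cell types were at or near 0. The B cell genes Cd79b, Ms4a1 and H2-Aa, the myeloid genes Lyz2, Tyrobp, S100a8, S100a9 and C1qa, all 4 fibroblast genes and all 4 hemoglobin genes had no UMI in either library. The B cell list had UMIs of 5 of its 9 genes in tumor cells and 3 in normal ones, and summed to 121 and 149 CPM against 158 and 168 in the reference, nearly all from Ighm with 129 and 309 UMIs. The myeloid list had UMIs of 3 and 2 of 9 genes and summed to 52.7 and 62.9 CPM against 60.6 and 63.0, nearly all from Cst3. The epithelial list summed to 7.18 CPM against 5.83 in the tumor library, and to 14.6 against 4.75 in the normal library, where 19 UMIs of the airway secretory gene Scgb1a1 came from 7 Sox4-positive cells. Endothelial, natural killer or innate lymphoid, and gamma-delta T cell lists summed to between 0 and 5.01 CPM in Sox4-positive cells and between 0.333 and 7.49 CPM in the reference. The part of these few transcripts in the results below was not tested.

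Genes of naive circulation were near the reference level. All 13 genes of a list of naive and lymph node homing genes had enough UMIs to be compared, with a median log2 ratio of 0.10 in tumor and 0.14 in normal lung, beside 0.09 and 0.10 for all 3132 genes compared. Lef1, a transcription factor of naive T cells, had ratios of 1.07 (1.00 to 1.14) and 1.07 (1.02 to 1.12). S1pr1, the receptor that guides exit from lymphoid organs, had 1.07 (0.99 to 1.16) and 1.19 (1.12 to 1.26). The exception was Dapl1, described below. A Ccr7 UMI was not required of the Sox4-positive cells, and 27 tumor and 21 normal ones had none. Of those, Lef1 was found in 26 and 17, Tcf7 in 24 and 16, and S100a4, a gene of memory and effector T cells, in 0 and 1.

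Across genes, differences from the reference were few, and the counts of higher and lower genes depended on the scale. Genes were compared where the higher class held at least 50 UMIs in each library, the number expected at the reference level being used for genes lower in Sox4-positive cells. Of 3132 such genes, 8 (0.255%) were at least 1.5-fold higher in Sox4-positive cells in both libraries and 2 (0.0639%) at least 1.5-fold lower. Under a wider threshold, a level at least 25% higher or at least 20% lower in both libraries, these counts were 79 (2.52%) and 10 (0.319%). A gene whose reference level fell short of the limit was compared only through a high count in Sox4-positive cells. Among the 10 highest genes described below, this held in the tumor library, where 50 UMIs are 39.9 CPM, for Tnfsf11, Atp8a1, Myb and Pmepa1. Their reference levels there were 30.03, 30.8, 33.3 and 28.0 CPM. In the normal library, where 50 UMIs are 22.8 CPM, it held for Pmepa1, with a reference level of 19.8 CPM. The counts of the 2 directions are therefore not comparable, and no balance is read from them. In the gene lists below, a gene that passed lay beyond the wider threshold in the same direction in both libraries. Transcripts of ribosomal proteins took 34.1% of UMIs in Sox4-positive tumor cells against 36.3% in the reference, and 34.0% against 37.0% in the normal library. Scaling by the median of gene ratios in place of the total lowered every log2 ratio by 0.09 in the tumor and 0.11 in the normal library, and on that scale 2 genes, Itm2a and Tnfsf11, were 1.5-fold higher and 5, Prr13, Dapl1, AW112010, Rhob and Socs3, were 1.5-fold lower.

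**Figure D2:**
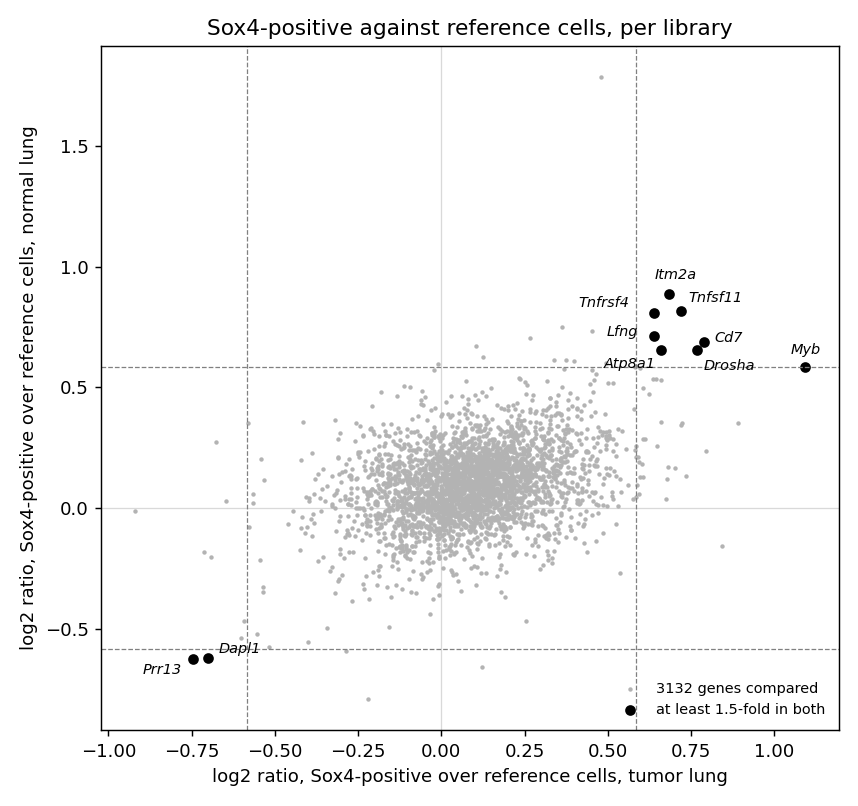
Log2 ratio of Sox4-positive over reference cells in the tumor library (x axis) and the normal library (y axis) for each of 3132 genes (grey), with the 10 genes at least 1.5-fold apart in the same direction in both in black; dashed lines mark 1.5-fold. The 8 higher genes lie at the upper right and Prr13 and Dapl1 at the lower left.

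Besides Itm2a, the 8 higher genes were cell surface and signaling genes of T cells (Tnfsf11, Cd7, Tnfrsf4), a modifier of Notch signaling (Lfng), a transcription factor of T cell development (Myb), and Drosha and Atp8a1. Tnfsf11 encodes the cytokine RANKL, which thymocytes present to the medullary epithelium. It was at 49.5 CPM in Sox4-positive and 30.03 in reference tumor cells, a ratio of 1.65 (1.246 to 2.15), and at 84.8 and 48.1 CPM in normal cells, a ratio of 1.76 (1.5002 to 2.06). The Sox4-positive tumor cells, the higher class of their own library, were close to the reference of the normal library.

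Cd7, a surface glycoprotein gene switched on early in the T lineage, was at 91.0 CPM in Sox4-positive and 52.7 in reference tumor cells, a ratio of 1.73 (1.41 to 2.10). In normal lung it was at 96.6 and 60.0 CPM, a ratio of 1.61 (1.39 to 1.86). Both Sox4-positive values lay above both reference values. Myb, required at several steps of thymocyte development, was at 71.0 and 33.3 CPM in the tumor library, a ratio of 2.13 (1.69 to 2.67), and at 58.3 and 38.9 CPM in the normal library, a ratio of 1.501 (1.24 to 1.81). Here too the classes did not overlap across tissues. A Myb UMI was found in 20.6% (16.1 to 25.8) and 17.3% (14.2 to 20.8) of Sox4-positive cells and in 10.4% (9.46 to 11.3) and 11.8% (10.99 to 12.7) of reference cells.

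Tnfrsf4 encodes the costimulatory receptor OX40. It was at 87.8 against 56.4 CPM in the tumor library, a ratio of 1.56 (1.27 to 1.90), and at 90.2 against 51.5 CPM in the normal library, a ratio of 1.75 (1.499 to 2.04). Lfng, a glycosyltransferase that tunes Notch receptors, had ratios of 1.56 (1.27 to 1.89) and 1.64 (1.42 to 1.88). Drosha, the nuclease that starts microRNA processing, had 1.70 (1.36 to 2.12) and 1.58 (1.28 to 1.92), and Atp8a1, a phospholipid flippase gene, had 1.58 (1.19 to 2.06) and 1.58 (1.27 to 1.94). Atp8a1 did not hold in thinned cells, where its log2 ratio in the normal library was −0.16. Rilpl2, at 1.497 (1.18 to 1.88) and 1.499 (1.19 to 1.87), and Pmepa1, an inhibitor of TGF-beta signaling, at 1.51 (1.12 to 2.01) and 1.49 (1.13 to 1.94), completed the 10 highest genes.

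The lower genes were led by Dapl1 and Prr13. Dapl1 (chromosome 2, 59484653 to 59505020), a gene of resting naive T cells, was at 87.0 CPM in Sox4-positive and 141 in reference tumor cells, a ratio of 0.62 (0.50 to 0.75). In the normal library it was at 118 and 181 CPM, a ratio of 0.65 (0.57 to 0.74). A Dapl1 UMI was found in 22.03% (17.4 to 27.3) against 30.5% (29.1 to 31.9) of tumor cells and 23.6% (20.1 to 27.4) against 34.4% (33.1 to 35.7) of normal cells. Both Sox4-positive levels lay below both reference levels. Prr13, which encodes a proline-rich protein, had ratios of 0.60 (0.44 to 0.79) and 0.65 (0.52 to 0.80).

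The other 8 of the 10 lowest genes passed the wider threshold, at least 20% below the reference in both libraries. AW112010, a transcript induced in activated and interferon-exposed immune cells, had ratios of 0.66 (0.53 to 0.81) and 0.69 (0.58 to 0.81). Ly6a, the surface antigen Sca-1, which interferon raises, was at 156 against 236 CPM in the tumor library, a ratio of 0.66 (0.57 to 0.77), and at 78.4 against 108 CPM in the normal library, a ratio of 0.72 (0.62 to 0.84). Its tumor level was above its normal level in both classes. Socs3, an inhibitor of cytokine signaling, was at 168 against 241 CPM and 47.9 against 71.2 CPM, ratios of 0.70 (0.61 to 0.80) and 0.67 (0.55 to 0.82). The remaining 5 were Rhob, a small GTPase, Cd55, Smpdl3a, Tagln2, an actin-binding protein, and the tetraspanin Cd9, with ratios between 0.68 and 0.80.

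Genes of the thymic emigrant list divided by level. The list held 13 genes, of which 7 had enough UMIs to be compared, and 3 of these 7, Itm2a, Myb and Tubb2a, were at least 25% higher in both libraries, where 2.52% of all genes were. None was at least 20% lower in both. The median log2 ratio of the 7 was 0.25 in the tumor and 0.41 in the normal library. Itm2a is in this list as one of the cells' own markers, so the count is a description. Tubb2a, a beta tubulin gene, had ratios of 1.33 (1.20 to 1.46) and 1.33 (1.26 to 1.41). Satb1, a chromatin organizer needed for thymocyte maturation, had 1.18 (1.09 to 1.26) and 1.31 (1.24 to 1.38).

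Cd24a (chromosome 10, 43579169 to 43584265), the heat-stable antigen that thymocytes lose as they mature, was below the limit for the comparison in the tumor library, with 40 UMIs, and had 53 in the normal library. Its level was 31.9 CPM in Sox4-positive and 12.7 in reference tumor cells, a ratio of 2.51 (1.75 to 3.53), and 24.2 and 9.59 CPM in normal cells, a ratio of 2.52 (1.83 to 3.42). The transcripts came from few cells. A Cd24a UMI was found in 8.39% (5.45 to 12.2) of Sox4-positive and 3.76% (3.20 to 4.38) of reference tumor cells, and in 6.69% (4.73 to 9.14) and 2.81% (2.39 to 3.28) of normal ones. Ccr9, a chemokine receptor of thymocytes and gut-homing cells, had 4 and 10 UMIs, with ratios of 2.13 (0.54 to 6.11) and 2.65 (1.17 to 5.43).

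Of 13 listed thymocyte genes, Cd1d1, Themis and Cd4 had enough UMIs to be compared, and none of the 3 passed in either direction. The genes below the limit had between 0 and 53 UMIs in Sox4-positive cells of a library, and Cd8a had none in either. Rag1 and Rag2, the recombinase genes, had 0 UMIs in Sox4-positive cells of both libraries, where 3 counts would be 1.05% of tumor and 0.558% of normal cells. Ptcra, the surrogate alpha chain of immature thymocytes, had 8 UMIs, all from 1 normal cell. Cd8b1, the beta chain of the CD8 coreceptor, was found in 7.34% (4.60 to 11.01) and 8.92% (6.65 to 11.7) of Sox4-positive cells and in 5.396% (4.73 to 6.12) and 5.89% (5.28 to 6.55) of reference cells. Its ratios were 1.58 (1.02 to 2.35) and 1.48 (1.09 to 1.98), from 27 and 53 UMIs.

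Genes linked to post-thymic maturation tended to lie lower, though not all of them did. Of 11 listed genes, 8 were compared, with median log2 ratios of −0.22 and −0.14, below the 0.09 and 0.10 of all genes, and 1, Cd55, was at least 20% lower in both libraries, where 0.319% of all genes were. Cd55 (chromosome 1, 130429798 to 130465009), the complement regulator decay-accelerating factor, was at 42.3 against 55.8 CPM in the tumor library, a ratio of 0.76 (0.56 to 1.00), and at 59.7 against 87.6 CPM in the normal library, a ratio of 0.68 (0.57 to 0.81). Il7r, the receptor for the survival cytokine IL-7, was at 652 against 741 CPM, a ratio of 0.88 (0.82 to 0.95), and at 817 against 897 CPM, a ratio of 0.91 (0.87 to 0.96). Ly6c1 had ratios of 0.81 (0.69 to 0.94) and 0.88 (0.78 to 0.98). Of the 8 genes, 6 lay below the reference in both libraries, where 346 of all 3132 genes did, and 2 above it, where 1765 did. The 2 were Ptprc, with log2 ratios of 0.19 and 0.23, and Bcl2, with 0.15 and 0.07. Among the 6, St8sia6 was near the reference in the tumor library, with log2 ratios of −0.01 and −0.15. H2-Q6, one of the Qa2 antigen genes, had 0.69 (0.55 to 0.85) and 0.86 (0.73 to 1.01), and H2-Q7 had 0.84 (0.76 to 0.93) and 1.00 (0.93 to 1.07). Reads of H2-Q6 and H2-Q7, and of Ly6c1 and Ly6c2, cannot always be told apart, so these values are uncertain.

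**Figure D3:**
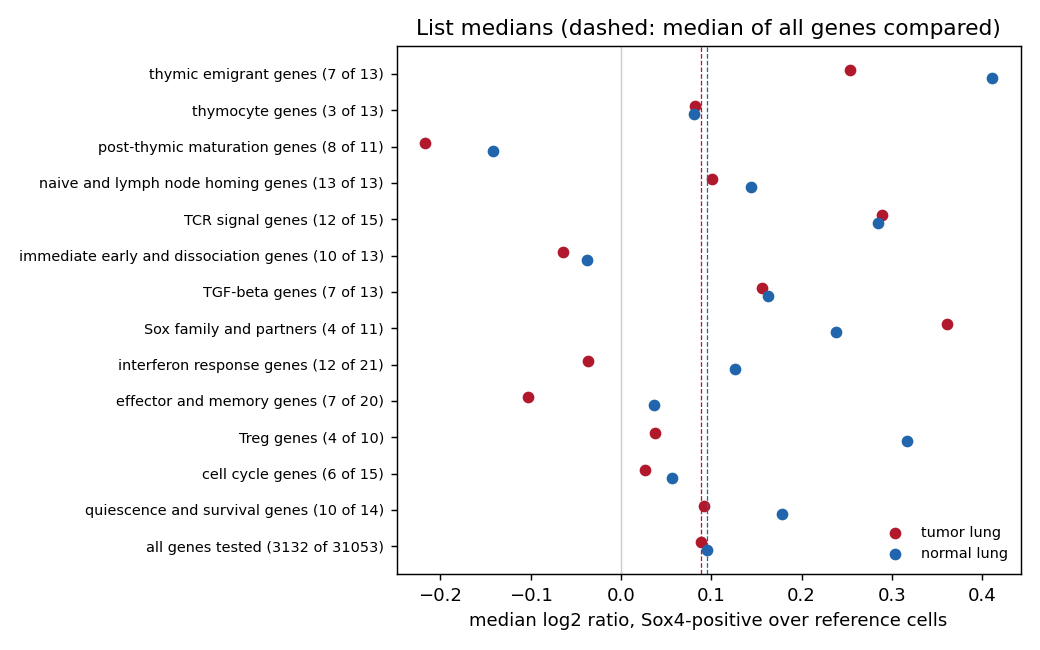
Median log2 ratio of Sox4-positive over reference cells (x axis) for each gene list with at least 3 genes compared (y axis, with the number compared of the number listed), tumor library in red and normal library in blue. The thymic emigrant list lies at 0.25 and 0.41 and the post-thymic maturation list at −0.22 and −0.14, with dashed lines at the medians of all genes, 0.09 and 0.10.

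Among 16 genes followed by the number of Sox4 UMIs, 10 went in 1 direction over both steps in each library, 6 of them up and 4 down, and 6 did not. The 16 were chosen with their contrast to the reference known, so the count is a description. Itm2a went from 216 CPM in the tumor reference to 337 (303 to 374) in cells with 1 Sox4 UMI and 393 (312 to 489) in the 47 cells with 2 or more. In the normal library it went from 208 to 361 (333 to 391) and, in 114 cells, 472 (412 to 537). The step from 1 to 2 or more UMIs was within the intervals in the tumor library and beyond them in the normal one. Cd7 stood at 52.7, 80.2 and 146 CPM in tumor cells and at 60.0, 91.0 and 117 in normal cells. Cd24a stood at 12.7, 26.7 and 58.3 CPM in tumor cells and at 9.59, 20.4 and 37.6 in normal cells. Both ascended in each library, although the counts in the highest step were 30 and 56 UMIs for Cd7 and 12 and 18 for Cd24a. Myb, at 33.3, 68.8 and 82.6 CPM in tumor and 38.9, 57.1 and 62.6 in normal cells, changed little beyond the first step. Satb1 was at 534, 622 and 656 CPM in tumor cells and at 527, 666 and 772 in normal cells. Tubb2a was at 275, 350 and 437 CPM in tumor cells and at 474, 562 and 879 in normal cells.

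Dapl1, Cd55, Il7r and H2-Q6 went down. Dapl1 was at 141 CPM in the tumor reference, 98.4 (80.3 to 119) with 1 Sox4 UMI and 29.1 (10.7 to 63.4) with 2 or more. In the normal library it was at 181, 131 (114 to 149) and 71.0 (49.2 to 99.2) CPM. For Dapl1 the intervals of the 3 steps did not overlap in either library. Cd55 was at 55.8, 47.8 and 14.6 CPM in tumor cells, the last from 3 UMIs, and at 87.6, 63.6 and 45.9 in normal cells. Il7r was at 741, 691 and 457 CPM in tumor cells and at 897, 826 and 785 in normal cells, where the last step was within the intervals. H2-Q6 was at 100.2, 73.5 and 43.7 CPM in tumor and at 83.6, 75.2 and 60.5 in normal cells. The 6 genes without 1 direction in both libraries were Tnfsf11, at 30.03, 50.6 and 43.7 CPM in tumor and 48.1, 84.5 and 85.6 in normal cells, with Ly6a, Igfbp4, Tsc22d1, Cd8b1 and Ccr8. Ly6a stood at 236, 157 and 155 CPM in tumor cells and at 108, 77.0 and 83.5 in normal cells. Tsc22d1 stood at 19.7, 16.2 and 29.1 CPM and at 39.6, 56.6 and 29.2, and Cd8b1 at 13.7, 22.9 and 14.6 and at 16.3, 20.4 and 37.6. Igfbp4 stood at 1475, 1366 and 1642 CPM and at 1083, 1304 and 1211. Median depth was alike across the steps, at 4155, 4037 and 4036 UMIs in the tumor library and 3927.5, 3854.5 and 3925.5 in the normal one.

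**Figure D4:**
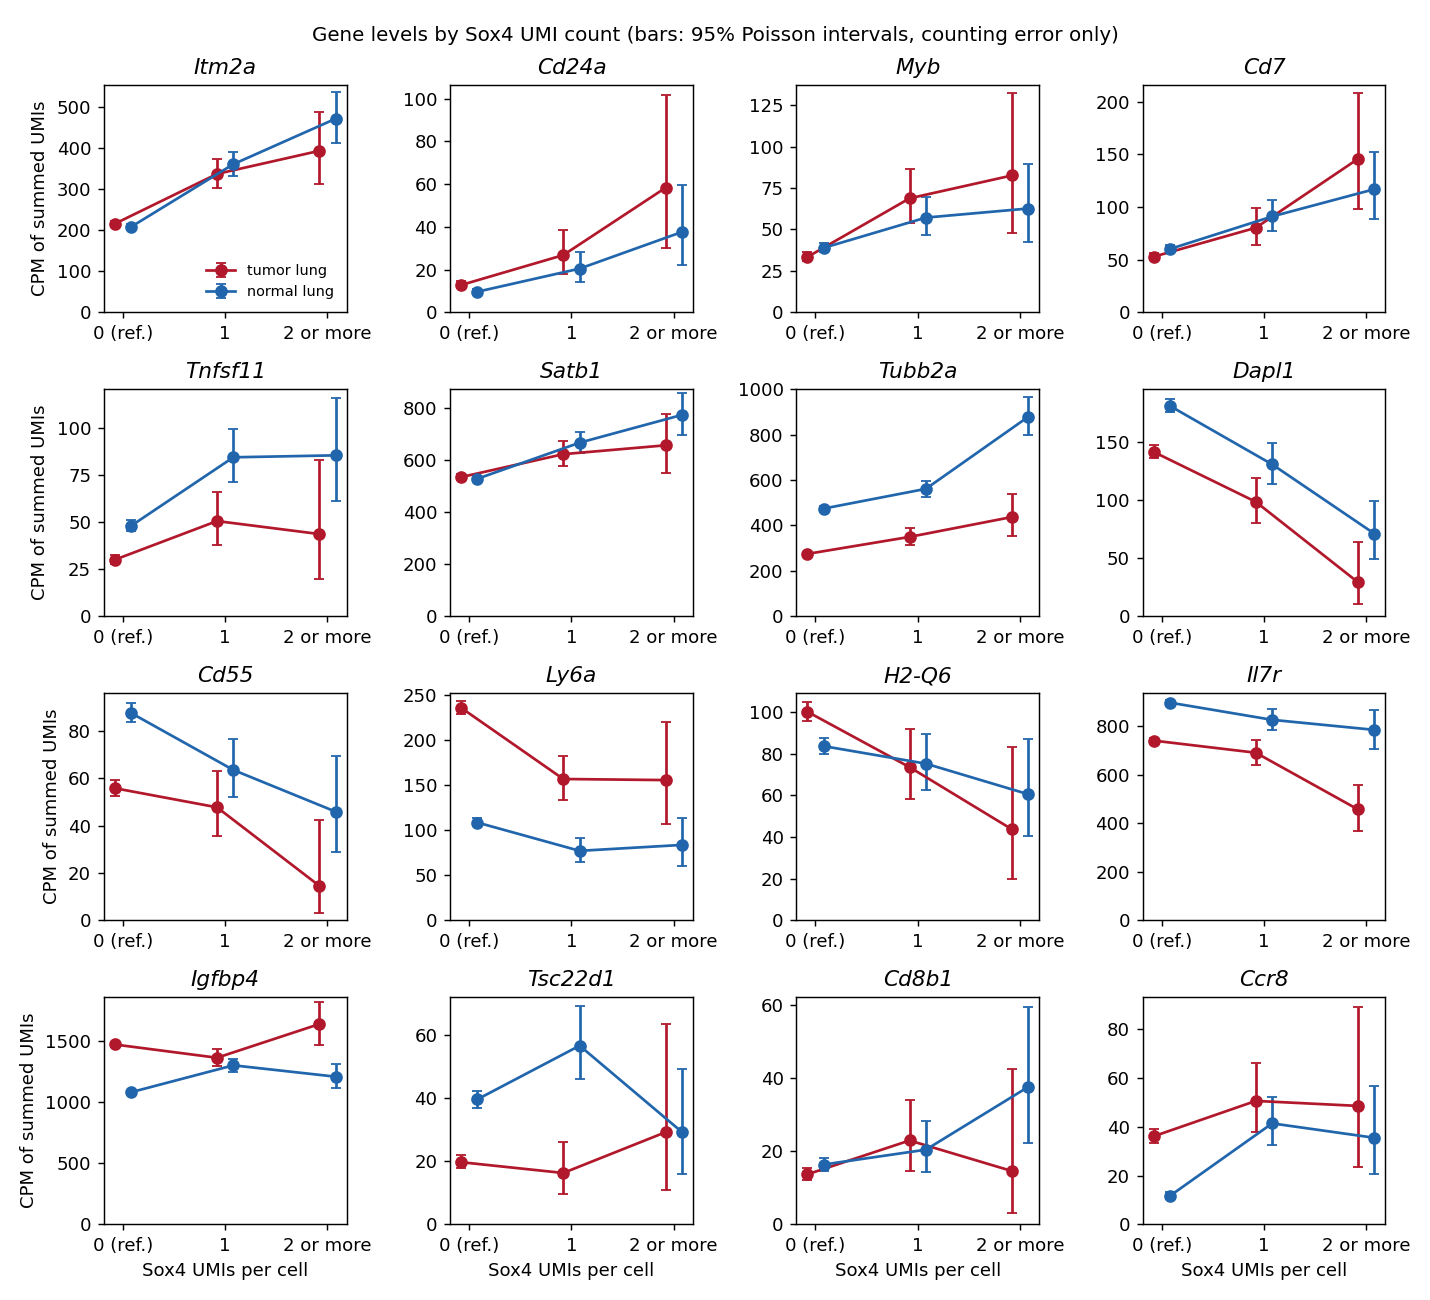
Level of 16 genes (y axis, CPM of summed UMIs) in reference cells and in cells with 1 or with 2 or more Sox4 UMIs (x axis), tumor library in red and normal library in blue, with 95% Poisson intervals. Of these, 6 ascend and 4 descend over both steps in both libraries, and the other 6 do not; Dapl1 goes from 141 to 29.1 CPM in the tumor library.

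Genes induced by T cell receptor signals were modestly higher. Of 15 listed genes, 12 were compared, with median log2 ratios of 0.29 and 0.28, and 3 of the 12, Nr4a1, Egr1 and Irf4, were at least 25% higher in both libraries, against 2.52% of all genes. Nr4a1, the nuclear receptor Nur77, an early response to receptor engagement, was at 977 against 736 CPM in the tumor library, a ratio of 1.33 (1.2501 to 1.41), and at 559 against 420 CPM in the normal library, also a ratio of 1.33 (1.254 to 1.41). Irf4, a transcription factor graded by receptor signal strength, had ratios of 1.55 (1.21 to 1.97) and 1.45 (1.07 to 1.93). Cd5, a brake whose level follows self-recognition, had 1.21 (1.06 to 1.37) and 1.22 (1.11 to 1.32). Cd69, another early activation gene, was not higher, with 0.92 (0.83 to 1.02) and 0.79 (0.71 to 0.89).

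A list of other early genes, which tissue digestion also induces, is set beside them. That list, with Fos, Jun and Junb, had 10 of 13 genes compared, median log2 ratios of −0.06 and −0.04, and none that passed. Of the 10, 3 lay above the reference in both libraries, where 1765 of all 3132 genes did, and 5 below it, where 346 did. The part of digestion in either list was not tested. Jun, a component of the AP-1 factor, had ratios of 0.81 (0.74 to 0.88) and 0.81 (0.76 to 0.87). Among the Sox family and partner genes, 4 of 11 were compared and 1, Id3, passed as higher, where 2.52% of all genes did. Id3, an inhibitor of E proteins, had 1.56 (1.30 to 1.87) and 1.45 (1.22 to 1.72), and Id2 had 1.40 (1.18 to 1.66) and 1.24 (1.09 to 1.41). Sox11 and Sox12, the genes closest to Sox4 in the family, had 0 UMIs.

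Lists of helper and regulatory T cell subsets held few genes that could be compared. In the regulatory T cell list 4 of 10 genes were compared, with medians of 0.04 and 0.32. Of the 4, Tnfrsf4 was at least 25% higher in both libraries, where 2.52% of all genes were. Il2ra, the high-affinity interleukin-2 receptor chain, had 3 and 1 UMIs. Ctla4 had ratios of 0.96 (0.79 to 1.16) and 1.34 (1.12 to 1.60). In the follicular helper list 2 of 7 genes were compared, with medians of −0.02 and −0.02, in the Th2 list 1 of 6, and in the Th17 list and the innate T list none, and none passed. Of the effector and memory list 7 of 20 were compared, with medians of −0.10 and 0.04, and none passed. Of these 7, 3 lay below the reference in both libraries, where 346 of all 3132 genes did, and 2 above it, where 1765 did. The 2 were Vim, with log2 ratios of 0.31 and 0.29, and Icos, with 0.08 and 0.11. Below the limit for the comparison, S100a6, a calcium-binding protein gene of memory cells, had 6 and 25 UMIs. Its ratios were 0.27 (0.10 to 0.60) and 0.57 (0.36 to 0.85), and those of Ahnak, also below the limit, were 0.33 (0.12 to 0.72) and 0.56 (0.34 to 0.87). Ratios of the other listed genes below the limit are not given here, so these 2 genes do not stand for the list.

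The remaining lists stood near all genes. Among interferon response genes 12 of 21 were compared, with medians of −0.04 and 0.13, and none passed. Among TGF-beta genes 7 of 13 were compared, with medians of 0.16 and 0.16, and Pmepa1 passed. Of 10 quiescence and survival genes compared of 14, with medians of 0.09 and 0.18, none passed. Among cell cycle genes, Stmn1, a microtubule regulator, alone of 6 compared of 15 passed, with a ratio of 1.37 (1.10 to 1.70) and 1.44 (1.24 to 1.67), while the proliferation marker Mki67 had 1 UMI in each library.

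Between tissues, the 10 genes most raised in tumor Sox4-positive cells were also higher in tumor reference cells, by 2.59-fold or more. Of 4657 genes that held 50 UMIs or more in the library where they were higher, 131 (2.81%) had at least 1.5-fold higher levels in tumor Sox4-positive cells and 245 (5.26%) at least 1.5-fold lower, while 96 and 36 of these genes differed so in the reference, whose sums are far larger. Genes passed the limit only through the library where they were higher, at 39.9 CPM for tumor and 22.8 CPM for normal cells, so the counts of the 2 directions are not comparable and no balance is read from them. With a limit of 100 UMIs they were 64 and 87. The 10 highest were Neb, Gadd45b, Klf10, Socs3, Ppp1r21, Plaur, Maff, Isg20, Elovl6 and Sbno2. Neb, which encodes the muscle filament protein nebulin, had 62 UMIs in 40 tumor cells and 6 in 5 normal cells, a ratio of 18.1 (7.86 to 51.2), and was 32.9-fold higher (22.9 to 49.0) in tumor reference cells. Gadd45b, a stress response gene, was at 192 and 37.8 CPM, a ratio of 5.09 (3.95 to 6.61), against 2.96 (2.77 to 3.16) in the reference. Klf10, a TGF-beta-inducible transcription factor, had 4.02 (2.80 to 5.87) against 2.59 (2.31 to 2.91). For the other 7 the ratios were 2.66 to 3.52 in Sox4-positive cells and 2.80 to 3.71 in the reference.

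The lowest genes in the tumor library were Tubb2b, Abcb1b, Cdk7, Ndc80, Cstf2t, Tsc22d1, Zfp87, Ephb6, Rnaseh1 and Nabp1. Tubb2b, a beta tubulin gene, had 11 UMIs in 8 tumor cells and 98 in 55 normal cells, levels of 8.78 and 44.7 CPM and a ratio of 0.20 (0.10 to 0.37). In the reference it was at 11.2 and 22.1 CPM, a ratio of 0.50 (0.43 to 0.60). Reads of Tubb2b and Tubb2a may be hard to separate, so these values are uncertain. Tubb2a had a ratio of 0.58 in both classes. Abcb1b, a multidrug transporter gene, had 8 and 58 UMIs, a ratio of 0.24 (0.10 to 0.51), against 0.80 (0.65 to 0.97) in the reference. Tsc22d1 had 0.36 (0.22 to 0.57), against 0.50 (0.44 to 0.56). For the other 7, from 12 to 24 UMIs in the tumor library, the ratios were 0.32 to 0.42 in Sox4-positive cells and 0.78 to 0.92 in the reference. In thinned cells Ephb6 had a log2 ratio of 0.02, and the cause was not tested.

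**Figure D5:**
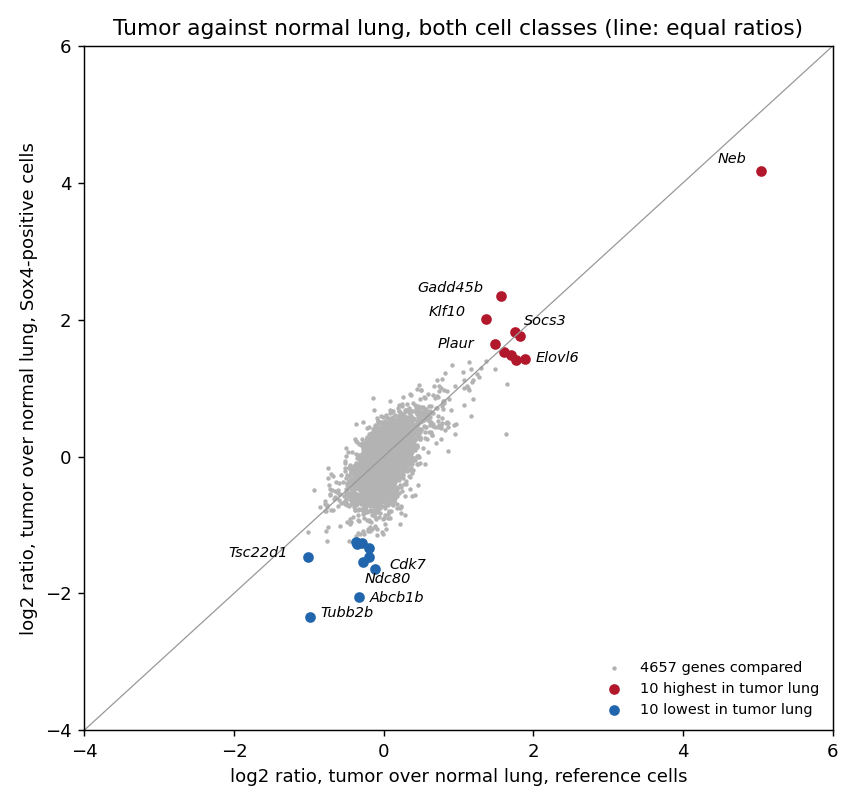
Log2 ratio of tumor over normal library in reference cells (x axis) and in Sox4-positive cells (y axis) for 4657 genes (grey); the 10 highest genes in Sox4-positive cells are red and the 10 lowest blue, and the line marks equal ratios. The 10 highest, led by Neb, lie on both sides of the line, and the 10 lowest lie below it. Both sets were chosen by their ratio in Sox4-positive cells, so their place against the line is not a finding.

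Lists gave the same picture. Of all 4657 genes, 2.81% were 1.5-fold higher and 5.26% lower in tumor Sox4-positive cells, and 96 and 36 genes in the reference. In Sox4-positive cells 6 of 12 T cell receptor signal genes were 1.5-fold or more above normal lung in tumor-bearing lung and none below, beside 7 of 12 in the reference, with median log2 ratios of 0.64 and 0.63. Egr1 had 2.30 (1.94 to 2.73) in Sox4-positive and 2.37 (2.24 to 2.51) in reference cells. Of 13 interferon response genes, 6 were 1.5-fold higher in tumor Sox4-positive cells and 8 in the reference, with medians of 0.52 and 0.73. Isg15, an interferon-induced ubiquitin-like modifier, was at 97.4 and 45.6 CPM in Sox4-positive cells, a ratio of 2.14 (1.63 to 2.81), and had 2.27 (2.11 to 2.45) in the reference. Of 10 thymic emigrant genes compared, 3, Tsc22d1, Tubb2a and Tubb2b, were 1.5-fold lower in tumor Sox4-positive cells, and 3 were so in the reference, with medians of −0.14 and −0.01. Itm2a itself differed little, at 346 and 385 CPM.

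The receptors of the Sox4-positive cells were much like those of the reference. Paired chains were found in 78.7% (73.5 to 83.3) of tumor and 82.3% (78.9 to 85.5) of normal Sox4-positive cells, beside 81.5% (80.3 to 82.6) and 77.0% (75.9 to 78.1) of the reference. Of cells with an alpha chain, 12.2% (8.35 to 17.1) of 237 tumor and 13.4% (10.4 to 16.9) of 449 normal Sox4-positive cells had 2 productive alpha chains, beside 12.0% (10.9 to 13.1) and 10.2% (9.29 to 11.1). The normal Sox4-positive cells thus had slightly more of both than their reference. A nonproductive alpha rearrangement was recovered in 32.2% (26.8 to 37.9) and 31.6% (27.7 to 35.7), beside 34.6% (33.1 to 36.0) and 28.3% (27.1 to 29.5). The invariant pairing TRAV11 with TRAJ18 of natural killer T cells was seen in 0 of 237 and 0 of 449 cells, where 3 counts would be 1.27% and 0.668% and the intervals end at 1.54% and 0.818%.

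CDR3 lengths were alike. The alpha CDR3 averaged 13.5 codons (SD 1.28 over 266 chains) in tumor and 13.5 (SD 1.32 over 509) in normal Sox4-positive cells, and 13.5 in both references. The beta CDR3 averaged 13.8 codons in both classes of both libraries. V alpha segments were counted by group name, such as TRAV6 for TRAV6-5 and TRAV6-6. By this naming, 91 V and J entries were used by at least 1% of reference chains in each library. Of these, 47 differed from the reference in the same direction in both libraries, about as many as went opposite ways. The segment with the largest such difference, by the smaller of its values in the libraries, was TRAJ31, which was used by 11 of 266 tumor and 19 of 509 normal alpha chains, 4.14% (2.08 to 7.28) and 3.73% (2.26 to 5.77), beside 6.61% (5.86 to 7.42) and 6.85% (6.16 to 7.60). The tumor intervals overlapped and the normal ones did not. The median J alpha segment number, which follows the position along the locus, was 32 and 33 in Sox4-positive cells and 32 and 31 in the reference.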

How the data were processed

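The deposited gene expression files hold raw counts of UMIs for every gene in every cell barcode, already reduced by the authors to barcodes called cells. Per the submitters' processing notes they were made with Cell Ranger on mm10, in version 3.1.0 per the file headers. The deposited receptor tables list, per the file headers, each contig with its chain, segments, CDR3, productivity and UMI count. The reference behind the receptor calls is not stated in them. A RefSeq table of GRCm38.p6, which supplied the coordinates, held 30934 of the 31053 gene identifiers. The files hold 7788 tumor and 7745 normal barcodes.

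Barcodes with fewer than 500 genes or at least 10% mitochondrial UMIs (120 and 61), and those with more than 2 productive alpha or 1 productive beta chain (533 and 602), were left out. Doublets were removed only through the receptors. UMIs were summed per class and library and scaled to a total of 1000000 (CPM). Ratios carry exact conditional intervals, CPM exact Poisson and shares Clopper-Pearson intervals, all at 95%. A class at 0 was set to 3 counts for a fold. With 1 library per group no test was made. The scripts were tested on simulated data. Python 3.11.15, numpy 2.4.6, scipy 1.17.1, pandas 2.3.3 and matplotlib 3.10.9 were used.

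Named genes are the markers, genes of 17 lists, and the 10 highest and 10 lowest of each contrast with at least 50 UMIs, members against reference being ranked by the ratio nearer 1 of the 2 libraries, without the 8 genes of the selection, receptor, immunoglobulin, mitochondrial, ribosomal protein, hemoglobin and sex-linked genes. Cells, lists and named genes were chosen with earlier results of these data known. Of 15 alternative settings, 14 were planned and 1, leaving out shared clones, was added after the data were seen.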

Additional observations from a re-analysis of the deposited data

How the results depend on the processing

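Each of 94 values was recomputed under 15 settings. Thinning cells to 2417 UMIs gave shares of 2.70% and 4.51% in the tumor and 5.44% and 6.59% in the normal library (of kept cells, then of Sox4-positive and reference cells), 5 genes higher and 1 lower in Sox4-positive cells, and 85 higher and 123 lower in the tumor library. Requiring 2 Sox4 UMIs gave 0.659% and 1.10%, 1.61% and 2.05%, and counts of 3, 0, 45 and 107. The tumor share stayed below the normal share in each case. Without the Ccr7 condition the tumor share of the 2 classes was 5.50% and 5 genes were higher. With no receptor filter 0 genes were lower, and median-of-ratios scaling gave 2 higher and 5 lower. Also requiring no UMI of Il2ra, Ctla4 and Ikzf2 gave shares of kept cells of 3.17% and 6.17% and 0 lower genes. Under the wider threshold of 25% higher or 20% lower the counts were 79, 10, 498 and 766, at 2-fold 0, 0, 32 and 34, and with at least 100 UMIs 4, 1, 64 and 87. No unadjusted p exists for any count, since nothing was tested.

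In thinned cells Atp8a1 changed sign in the normal library (log2 −0.16) and so did Ephb6 between tissues (0.024); the cause was not tested. Pmepa1 did so in normal cells with 2 Sox4 UMIs (−0.66). Igfbp4 in the tumor library changed sign under 1 setting and Tsc22d1 under 2 in each library. The other genes named among the 10 highest and 10 lowest against the reference kept their direction under all 15 settings in both libraries. Most Sox4-positive cells rest on 1 UMI of Sox4, which limits how sharply the class is drawn at this depth. No paired analysis was possible because each group is 1 library.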

Other observations

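Sox4 was also found in some Foxp3-positive cells, which the selection left out. In the normal library 16 of 206 cells with a Foxp3 UMI had a Sox4 UMI (7.77%, 4.50 to 12.3), and in the tumor library 12 of 1147 did (1.05%, 0.542 to 1.82), at median depths of 3995.5 and 4725 UMIs. Among Foxp3-positive cells that otherwise met the naive gate, the shares were 13 of 121 (10.7%, 5.85 to 17.7) and 4 of 100 (4%, 1.10 to 9.93). Among Foxp3-positive cells with a UMI of the 5 activation and effector genes they were 3 of 73 (4.11%, 0.856 to 11.5) and 8 of 995 (0.804%, 0.348 to 1.58). The 2 libraries thus differed in how Foxp3-positive cells divided between the gates, 121 of 206 against 100 of 1147 meeting the naive one. Thinned, all Foxp3-positive cells gave 7.38% and 0.447%.

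Ccr8, a chemokine receptor gene known from regulatory and Th2 cells, had the largest ratio of all genes compared in the normal library and was chosen after its values were seen. Its log2 ratio of Sox4-positive over reference cells was 1.79 there and 0.48 in the tumor library. The levels were 41.4 CPM with 1 and 35.5 with 2 or more Sox4 UMIs in the normal library, against 11.6 in the reference, and 50.6, 48.6 and 36.1 in the tumor library. Both reference levels fell short of the limit of 50 UMIs, which is 22.8 CPM in the normal and 39.9 CPM in the tumor library. Ccr8 was thus compared only through its high count in Sox4-positive cells, and its rank is not a finding. A Ccr8 UMI was found in 9.29% (6.98 to 12.1) against 3.102% (2.66 to 3.60) of normal and 12.2% (8.67 to 16.6) against 8.30% (7.48 to 9.17) of tumor cells.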
